A study of Rattus norvegicus with 3 samples.

Results

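The FGF signalling set held 10 genes, which were the ligands *Fgf2*, *Fgf7*, *Fgf10* and *Fgf18*, the receptors *Fgfr1*, *Fgfr2* and *Fgfr3*, and the feedback inhibitors *Spry1*, *Spry2* and *Dusp6*. A probe set was taken when the array annotation gave it a single gene symbol and that symbol was one of the 10, which found all 10 genes with 18 of the 31042 probe sets. The genes were selected on signals of these same 3 arrays, so their values are given as a description, with no test. RNA was measured on rat whole-genome expression arrays in Achilles tendon stem/progenitor cells (TSPCs) of Sprague-Dawley rats that were 1 day old (TSPCs-1d), 7 days old (TSPCs-7d) or 56 days old (TSPCs-56d), with 1 array for each age. Each culture was grown from the mixed tendons of at least 2 animals, was selected by colony growth at very low density and was used at passage 2, so it was not 1 clone and held only cells that migrated out of tissue and grew in medium with fetal bovine serum. The labels name no treatment or genetic change. With 1 culture for each age, the spread between animals or cultures is unknown, and age and culture cannot be told apart.

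Fibroblast growth factors are secreted ligands that bind receptor tyrosine kinases together with heparan sulfate at the cell surface. The activated receptor phosphorylates the adaptor FRS2, which engages GRB2 and SOS and passes the signal through Ras, Raf and MEK to the kinase ERK. ERK signalling induces its own inhibitors, among them the Sprouty proteins, which act between receptor and Ras or Raf, and DUSP6, a phosphatase that inactivates ERK in the cytoplasm. In chick embryos, FGF from the developing muscle induces *Scx*, the transcription factor of tendon progenitors.

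ETS transcription factors, which ERK signalling acts on, bind sites with the core GGAA. The 250 bases before the annotated start are shown for *Spry1*, *Spry2* and *Dusp6*, because *Spry1* differed in direction from the other feedback genes in TSPCs-56d relative to TSPCs-1d. They are RefSeq sequences of the GRCr8 build, written 5′ to 3′ along the strand of the gene, with GGAA or its reverse complement TTCC in capitals. *Spry1* lies on the plus strand (chr2:122485097-122485346), *Spry2* on the minus strand (chr15:89111927-89112176, the outer of 2 annotated starts) and *Dusp6* on the plus strand (chr7:35979354-35979603).
Spry1: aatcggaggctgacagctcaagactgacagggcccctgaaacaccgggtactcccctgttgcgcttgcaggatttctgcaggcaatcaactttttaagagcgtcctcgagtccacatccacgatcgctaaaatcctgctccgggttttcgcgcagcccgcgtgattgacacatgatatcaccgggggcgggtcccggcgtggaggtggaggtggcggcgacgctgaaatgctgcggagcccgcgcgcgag
Spry2: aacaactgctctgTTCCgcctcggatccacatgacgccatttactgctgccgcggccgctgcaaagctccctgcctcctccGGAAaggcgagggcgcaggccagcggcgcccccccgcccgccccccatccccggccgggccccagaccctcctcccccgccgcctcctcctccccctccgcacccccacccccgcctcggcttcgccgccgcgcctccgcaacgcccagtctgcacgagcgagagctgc
Dusp6: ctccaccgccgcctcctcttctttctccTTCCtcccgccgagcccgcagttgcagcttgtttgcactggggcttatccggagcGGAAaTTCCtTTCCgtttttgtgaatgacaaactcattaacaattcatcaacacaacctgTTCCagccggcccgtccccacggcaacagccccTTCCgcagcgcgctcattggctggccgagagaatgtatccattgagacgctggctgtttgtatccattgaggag
The *Spry1* window held 0 copies of GGAA or TTCC, the *Spry2* window shown 2 and the *Dusp6* window 6. The window of the inner *Spry2* start, not shown, held 4. Of all 33469 windows of this length in the table, 93.2% held at least 1 copy and 6.77% held 0. Of the 10 genes, 9 matched the table with 10 windows, and 9 of these windows held a copy. The longer letters CCGGAA, which contain GGAA and were also searched on both strands, were in the *Spry2* window shown and in none of the other 9, against 12.6% of all windows. These are matches of letters, not measured binding.

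Signals are MAS5 intensities on a linear scale, and each probe set is compared only with itself between arrays, since levels of different probe sets are not comparable. A difference was counted as past the cutoff when it was over 2-fold. Over all probe sets, 1.36% were past 2-fold higher and 0.989% lower in TSPCs-7d relative to TSPCs-1d. The shares were 1.31% higher and 1.68% lower in TSPCs-56d relative to TSPCs-7d, and 1.52% higher and 1.80% lower in TSPCs-56d relative to TSPCs-1d. Of the 18 probe sets of the set, 0 were past the cutoff higher and 1 lower in TSPCs-7d relative to TSPCs-1d. In TSPCs-56d 2 were higher and 0 lower relative to TSPCs-7d, and 3 were higher and 1 lower relative to TSPCs-1d. The median log2 ratio of the 18 was -0.04, 0.04 and -0.07 in these comparisons, against 0.01, 0.05 and 0.05 over all probe sets. The probe sets past the cutoff belonged to *Spry1*, *Fgf18*, *Fgfr1* and *Dusp6*.

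With each gene taken by its brightest probe set, 1.87% of 14216 genes were past 2-fold higher and 1.08% lower in TSPCs-7d relative to TSPCs-1d, and 0 of the 10 genes were. In TSPCs-56d relative to TSPCs-7d, 1.72% of genes were higher and 2.10% lower, and 2 of the 10 were higher, *Spry1* and *Fgf18*. The same 2 were higher relative to TSPCs-1d, where 2.00% of all genes were higher and 1.77% lower. None of the 10 was past 2-fold lower by its brightest probe set. The median log2 ratio of the 10 genes was -0.16, 0.52 and 0.00 in the 3 comparisons, against 0.01, 0.05 and 0.06 over all genes. The 0.52 for TSPCs-56d over TSPCs-7d rests on 1 probe set for each gene, and the median over all 18 probe sets was 0.04. In cell cultures a smaller share of cells with a transcript and less RNA per cell cannot be told apart.

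**Figure D1:**
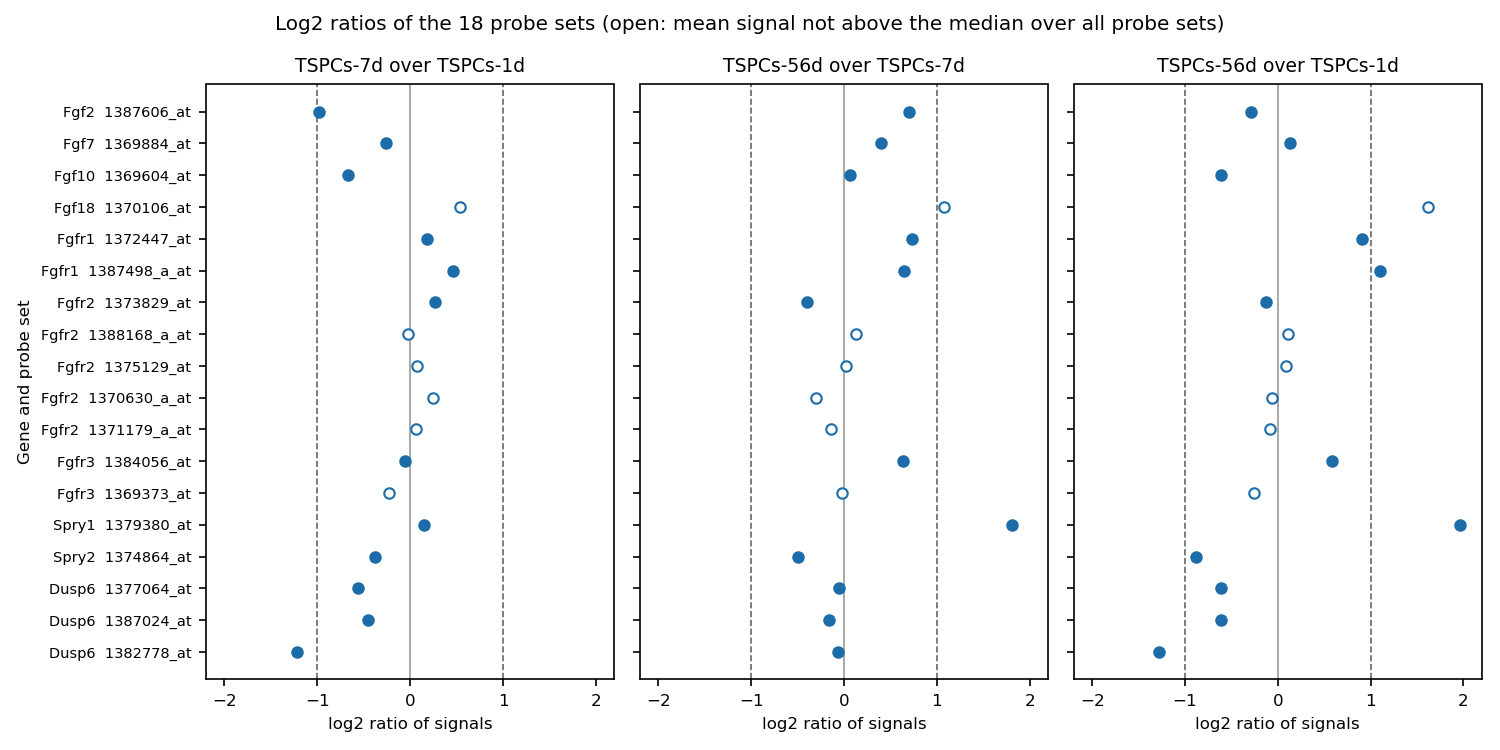
Log2 ratio of signals (x axis) for each of the 18 probe sets of the FGF signalling set (rows) in the 3 comparisons of ages, with dashed lines at 2-fold and open symbols for probe sets whose mean signal was not above the median over all probe sets. The *Spry1* probe set stands at 1.81 and 1.96 in both comparisons of TSPCs-56d, and all 3 *Dusp6* probe sets lie below 0 in every comparison.

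Among the ligands, *Fgf2*, a heparin-binding mitogen of fibroblasts, had signals of 279, 141 and 229 at 1, 7 and 56 days. It was lowest in TSPCs-7d, where it was 1.98-fold lower than in TSPCs-1d (log2 ratio -0.99) and so just short of the cutoff. It was 1.63-fold higher in TSPCs-56d relative to TSPCs-7d. *Fgf7*, the keratinocyte growth factor, which mesenchymal cells make for epithelia, had signals of 270.2, 225 and 296 at 1, 7 and 56 days. Its largest difference was 1.32-fold, higher in TSPCs-56d relative to TSPCs-7d. *Fgf10*, which acts from mesenchyme on epithelium and is required for limb and lung outgrowth in the mouse, had signals of 1161, 729 and 762 in the same order of age. It was highest in TSPCs-1d, and was 1.59-fold lower in TSPCs-7d and 1.52-fold lower in TSPCs-56d relative to that age. TSPCs-56d over TSPCs-7d had a ratio of 1.05.

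*Fgf18*, a regulator of cartilage and bone growth in the mouse, had signals of 16.0, 23.2 and 49.0 at 1, 7 and 56 days. Its ratios were 1.45 for TSPCs-7d over TSPCs-1d, 2.11 for TSPCs-56d over TSPCs-7d and 3.06 for TSPCs-56d over TSPCs-1d. These signals were dim. The lowest 25 percent of all signals lay at or under 48.9, so that TSPCs-1d and TSPCs-7d were in that range and TSPCs-56d stood at its edge. With signals under that level raised to it, each *Fgf18* ratio was 1.00, and the order of the ages for this gene is not established by these arrays.

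**Figure D2:**
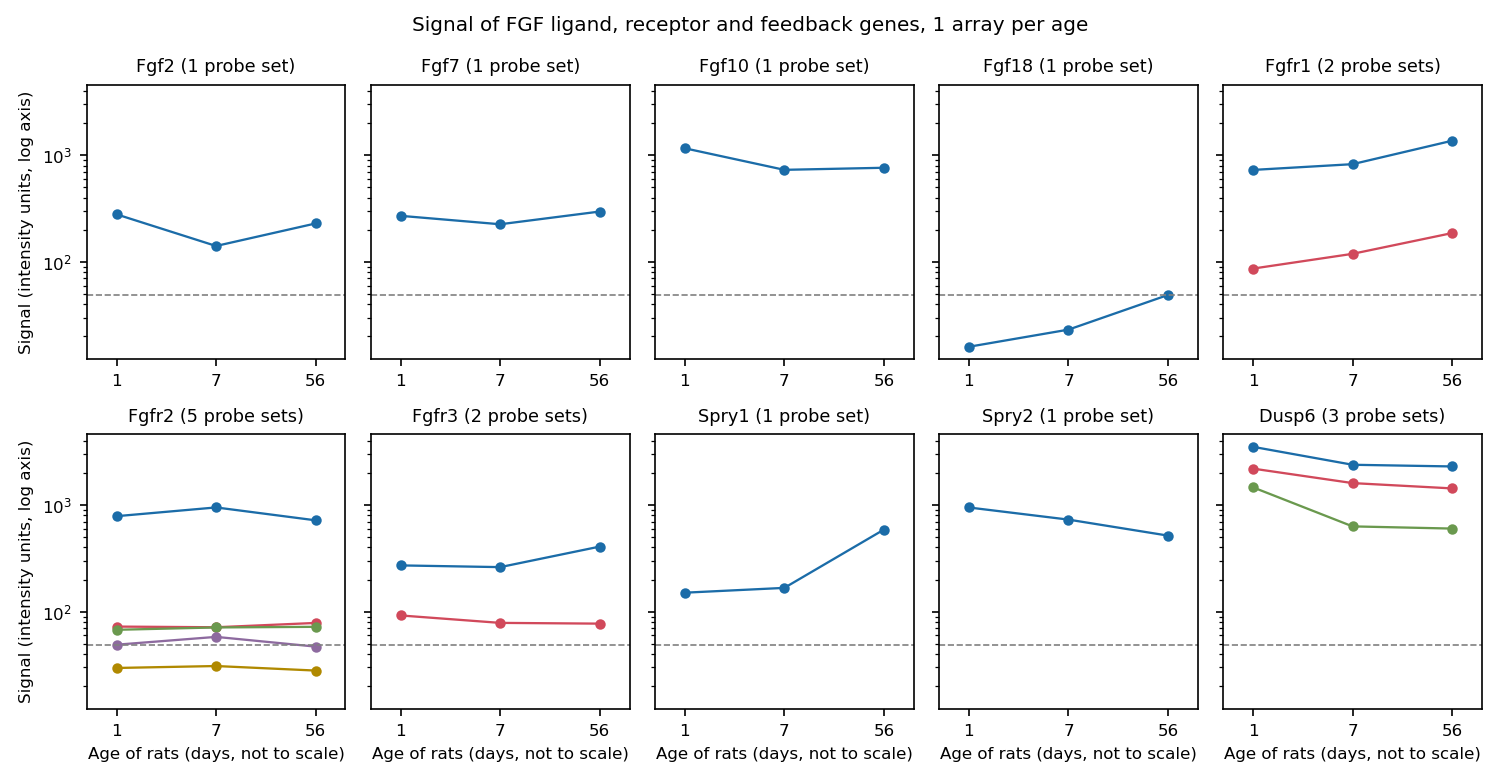
Signal (y axis, linear MAS5 intensity on a log axis) of every probe set of the 10 genes at 1, 7 and 56 days (x axis, 1 array each), with 1 line for each probe set. *Spry1* is highest in TSPCs-56d at 588, *Fgf2* is lowest in TSPCs-7d at 141, and *Fgf18* stays at or under 49.0.

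Of the receptors, *Fgfr1*, which many mesenchymal cells use to respond to FGF, was higher at each later age with both of its probe sets. The brighter probe set had signals of 728, 824 and 1367 at 1, 7 and 56 days. The other had 86.5, 119 and 186 at the same ages. TSPCs-56d were 1.66-fold and 1.57-fold higher than TSPCs-7d by these probe sets, and 1.88-fold and 2.15-fold higher than TSPCs-1d, so only the dimmer probe set was past the cutoff. The order of the ages was the same for both.

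*Fgfr2*, whose splice forms distinguish the epithelial ligands from the mesenchymal ones, was covered by 5 probe sets. The brightest had signals of 786, 950 and 719 at 1, 7 and 56 days, which was 1.32-fold lower in TSPCs-56d relative to TSPCs-7d. The other 4 had signals between 28.1 and 78.5 on all arrays. Over the 5 probe sets the log2 ratio lay between -0.02 and 0.27 in TSPCs-7d over TSPCs-1d, between -0.40 and 0.13 in TSPCs-56d over TSPCs-7d, and between -0.13 and 0.11 in TSPCs-56d over TSPCs-1d. None was past the cutoff, and levels of the splice forms cannot be set against each other from these probe sets.

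*Fgfr3*, which restrains the growth of cartilage in the mouse growth plate, had probe sets that differed. The brighter had signals of 272, 262 and 408 at 1, 7 and 56 days, 1.56-fold higher in TSPCs-56d relative to TSPCs-7d. The other had signals of 92.2, 78.6 and 77.3, with a ratio of 0.984 in the same comparison. The first was higher in TSPCs-56d and the second was not, and their log2 ratios lay 0.66 apart over TSPCs-7d and 0.84 apart over TSPCs-1d. The direction for *Fgfr3* in TSPCs-56d therefore depends on the probe set.

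Among the feedback genes, *Spry1*, which encodes a Sprouty inhibitor of receptor signalling, had signals of 151, 167 and 588 at 1, 7 and 56 days. TSPCs-56d stood apart from both earlier ages, which differed by a ratio of 1.11. *Spry1* was 3.52-fold higher in TSPCs-56d relative to TSPCs-7d and 3.90-fold higher relative to TSPCs-1d. Of the 31042 probe sets, 93 (0.300%) were as far or farther up in the first comparison and 103 (0.332%) in the second. It was read by 1 probe set.

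*Spry2*, another Sprouty gene, had signals of 948, 730.1 and 517 at 1, 7 and 56 days. It was lower at each later age, by 1.30-fold in TSPCs-7d relative to TSPCs-1d, by 1.41-fold in TSPCs-56d relative to TSPCs-7d and by 1.84-fold in TSPCs-56d relative to TSPCs-1d. It was read by 1 probe set and did not reach the cutoff. Thus *Spry1* and *Spry2* differed in direction in TSPCs-56d.

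*Dusp6*, the ERK phosphatase, was highest in TSPCs-1d with all 3 probe sets. The brightest had signals of 3514, 2385 and 2300.4 at 1, 7 and 56 days, the next 2195, 1606 and 1432, and the dimmest 1465, 631 and 602. TSPCs-7d were 1.47-fold, 1.37-fold and 2.32-fold lower than TSPCs-1d by these probe sets. TSPCs-56d were 1.53-fold, 1.53-fold and 2.43-fold lower than TSPCs-1d, and lay near TSPCs-7d with ratios of 0.964, 0.892 and 0.954. The direction was shared by the 3 probe sets, whereas only the dimmest was past the cutoff. This step lay between TSPCs-1d and TSPCs-7d, while that of *Spry1* lay between TSPCs-7d and TSPCs-56d.

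**Figure D3:**
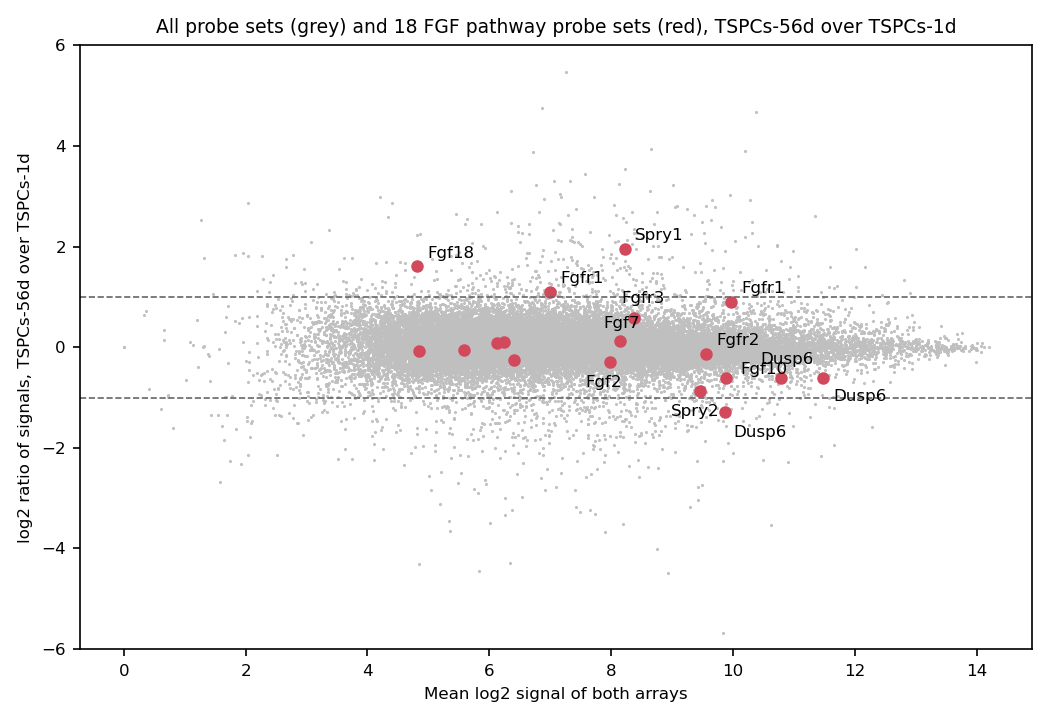
Log2 ratio of TSPCs-56d over TSPCs-1d (y axis) against the mean log2 signal of both arrays (x axis) for all probe sets in grey and the 18 probe sets of the FGF signalling set in red, with dashed lines at 2-fold. *Spry1* at 1.96, *Fgf18* at 1.61 and 1 *Fgfr1* probe set at 1.11 lie above the upper line, and 1 *Dusp6* probe set at -1.28 lies below the lower one.

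The arrays gave 1 partial measure of technical spread, the difference between the log2 ratios of 2 probe sets of a gene. Over 1714 genes with 2 probe sets of at least middle brightness, 90% of these differences were within 0.39 in TSPCs-7d over TSPCs-1d, 0.44 in TSPCs-56d over TSPCs-7d and 0.53 in TSPCs-56d over TSPCs-1d. Both probe sets are read from the same RNA on the same arrays. The measure therefore leaves out errors that they share and the spread between cultures, and it can include real differences between transcripts. Among all 15521 probe sets above the median brightness, 8.76% were farther up and 7.09% farther down than this limit in TSPCs-7d over TSPCs-1d, 8.58% and 8.97% in TSPCs-56d over TSPCs-7d, and 7.46% and 5.84% in TSPCs-56d over TSPCs-1d. Of the 12 probe sets of the set that were above the median brightness, 1 was farther up and 5 were farther down in TSPCs-7d over TSPCs-1d, those farther down being *Fgf2*, *Fgf10* and the 3 of *Dusp6*. In TSPCs-56d over TSPCs-7d, 5 were farther up (*Fgf2*, both of *Fgfr1*, *Fgfr3* and *Spry1*) and 1 farther down (*Spry2*). In TSPCs-56d over TSPCs-1d, 4 were farther up (both of *Fgfr1*, *Fgfr3* and *Spry1*) and 5 farther down (*Fgf10*, *Spry2* and the 3 of *Dusp6*). *Fgf7* and *Fgfr2* stayed within it in every comparison by their brightest probe sets.

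Other genes of the pathway were then read from lists of *Fgf* genes, receptors and cofactors, heparan sulfate and FGF-binding proteins, adaptors, kinases, feedback genes and ERK targets. Of 126 listed genes, 111 had a single-gene probe set and were analysed. By their brightest probe set, 0 were past 2-fold higher and 1 lower in TSPCs-7d relative to TSPCs-1d, and 0 were higher and 1 lower in TSPCs-56d relative to TSPCs-7d. In TSPCs-56d relative to TSPCs-1d 2 were higher and 2 lower, or 1.80% each, beside 2.00% and 1.77% of all genes. Their median log2 ratios were -0.04, 0.06 and 0.06 in these comparisons.

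Of 18 other *Fgf* genes analysed, 9 were in the lowest 25 percent of signals on all 3 arrays. *Fgf1*, which binds all FGF receptors, had signals of 738, 325 and 447 at 1, 7 and 56 days, and was 2.27-fold lower in TSPCs-7d relative to TSPCs-1d. Its other probe sets were 1.20-fold and 1.83-fold lower in that comparison, so the size differed and the direction did not. *Fgf13*, which encodes an intracellular FGF-like protein that binds sodium channels and is not a classical secreted ligand, had signals of 214, 172 and 60.6 at 1, 7 and 56 days. It was 2.83-fold lower in TSPCs-56d relative to TSPCs-7d and 3.53-fold lower relative to TSPCs-1d.

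On the list of other receptors and cofactors, which also held *Fgfr1op2*, none of 7 genes was past the cutoff. *Fgfr4*, the remaining kinase receptor, had low signals of 64.7, 72.5 and 71.5 at 1, 7 and 56 days. *Fgfrl1*, a receptor without the kinase domain, had nearly equal signals of 816, 824 and 839. The next list held genes that make, carry or modify heparan sulfate, and the FGF-binding proteins *Fgfbp1* and *Fgfbp3*. Of its 23 genes, 2 were past the cutoff, both higher in TSPCs-56d relative to TSPCs-1d. *Sulf1*, which removes sulfate groups from heparan sulfate, had signals of 231, 356 and 571 at 1, 7 and 56 days, a 2.47-fold difference between the last and the first age. A weaker *Sulf1* probe set gave 1.37-fold. *Hs6st1*, a sulfotransferase that adds such groups, had signals of 389, 433 and 800 and was 2.05-fold higher in TSPCs-56d relative to TSPCs-1d. *Sulf2*, named here after its values were seen, went the other way from *Sulf1* with signals of 716, 417 and 375, 1.91-fold lower in TSPCs-56d relative to TSPCs-1d.

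**Figure D4:**
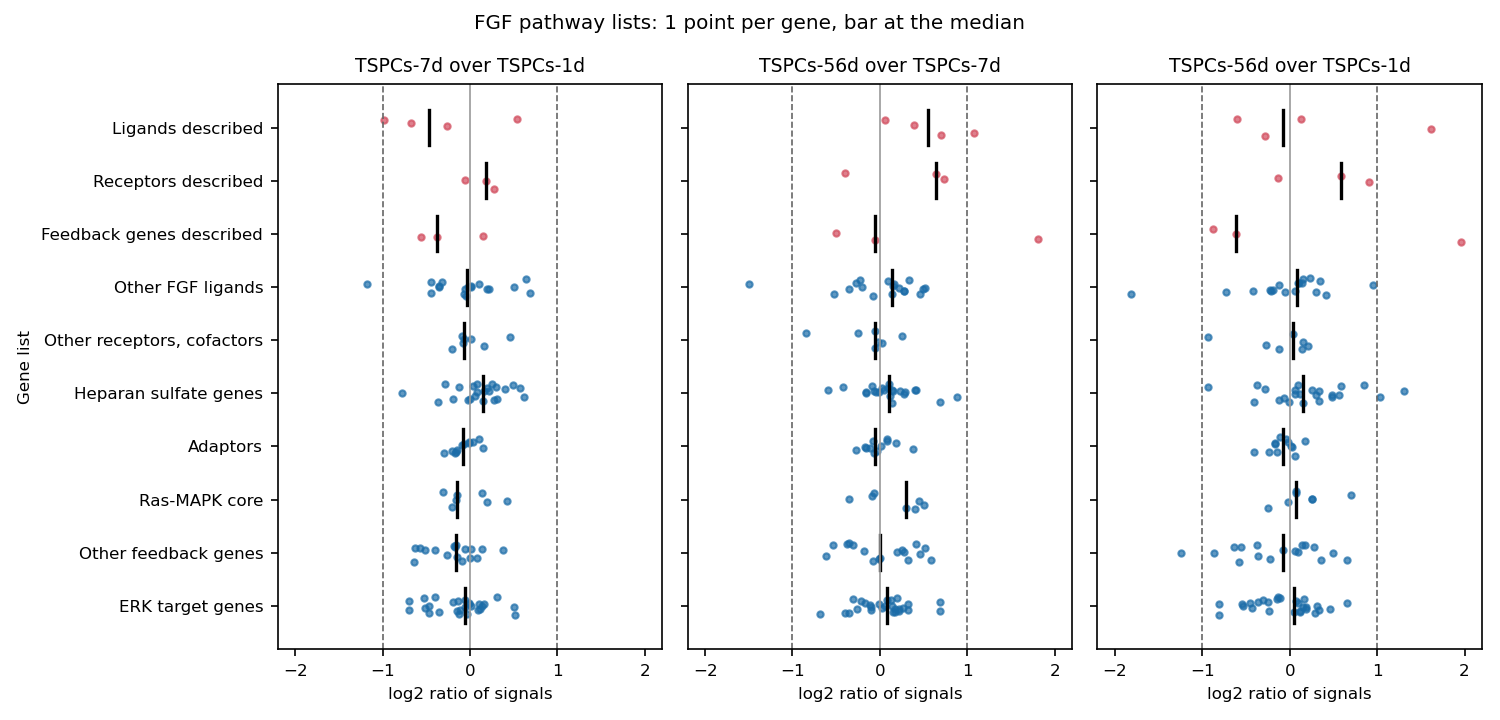
Log2 ratio of each gene's brightest probe set (x axis) for the members and the lists of other FGF pathway genes (rows) in the 3 comparisons, with dashed lines at 2-fold, 1 point for each gene and a bar at the median. Nearly all points lie between the lines, and *Spry1* at 1.96 is the point farthest right in TSPCs-56d over TSPCs-1d.

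None of the 12 adaptor genes and none of the 7 genes of the Ras, Raf, MEK and ERK chain that were analysed was past 2-fold, with log2 ratios between -0.41 and 0.71 over the 3 comparisons. Of 17 other feedback genes, 1 was past the cutoff. *Spry3*, a further Sprouty gene, had signals of 130, 83.9 and 54.9 at 1, 7 and 56 days, and was 2.36-fold lower in TSPCs-56d relative to TSPCs-1d. *Spry4* had signals of 858, 549.5 and 552, with a 1.55-fold lower value in TSPCs-56d relative to TSPCs-1d, the difference lying before 7 days as for *Dusp6*. Thus *Spry1* was the only one of the 4 Sprouty genes that was above TSPCs-1d in TSPCs-56d. The nuclear ERK phosphatases *Dusp4* (130.4, 99.1 and 136) and *Dusp5* (316, 283 and 338) did not reach the cutoff. *Spred1* and *Spred2* were not analysed here.

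**Figure D5:**
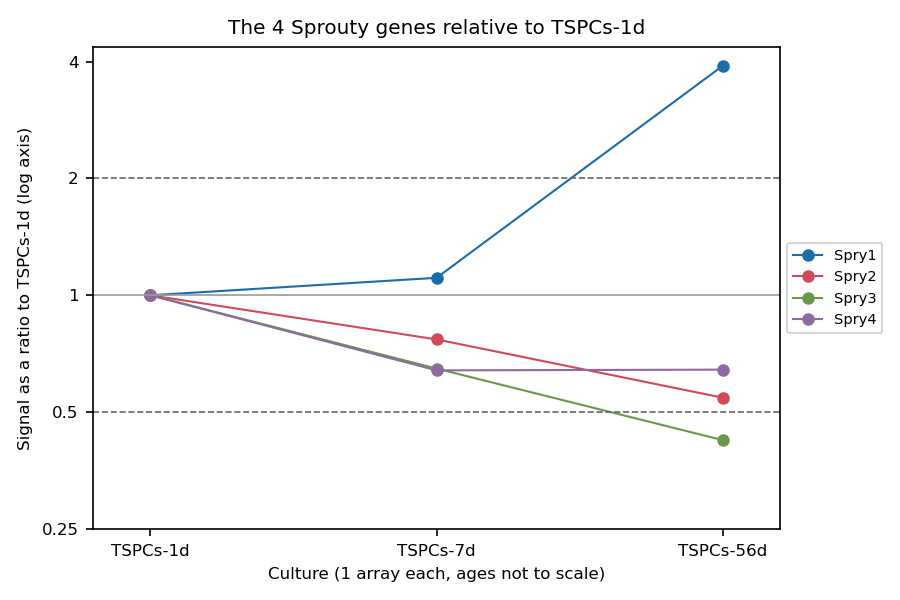
Signal of the brightest probe set of each Sprouty gene as a ratio to TSPCs-1d (y axis, log axis) at 1, 7 and 56 days (x axis, 1 array each), with dashed lines at 2-fold. *Spry1* is at 3.90 in TSPCs-56d, and *Spry2*, *Spry3* and *Spry4* are at 0.545, 0.424 and 0.643. The *Spry3* signal in TSPCs-56d was low, near the dim limit.

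None of 27 genes listed as ERK targets was past 2-fold in any comparison by its brightest probe set. The list also held ETS factors that ERK signalling acts on, such as *Elk1*, *Elk3* and *Elk4*. A dimmer probe set of *Elk1*, an ETS factor, was 2.36-fold higher in TSPCs-56d relative to TSPCs-1d (90.5, 108 and 214 at the 3 ages), while the brightest *Elk1* probe set was 1.09-fold lower. The ETS factors *Etv4* (159, 143 and 123 at 1, 7 and 56 days) and *Etv5* (387, 372 and 407), which are FGF targets in mouse and zebrafish embryos, differed by less than 1.5-fold. The median log2 ratio of the 27 was -0.05, 0.09 and 0.05 in the 3 comparisons. Some targets were, like *Dusp6*, highest in TSPCs-1d and others were highest in TSPCs-56d. Those that follow are named after their values were seen. *Fosl1*, an AP-1 subunit, had signals of 584, 361 and 334 at the 3 ages, and *Ets2* had 887, 548 and 608. The brightest *Jun* probe set had 1227, 856 and 850. The cyclin gene *Ccnd1* had its step at the later age, with signals of 3237, 2980 and 1854, and was 1.75-fold lower in TSPCs-56d relative to TSPCs-1d. The immediate early gene *Egr1* had signals of 3720, 3992 and 4240 and no such step. By their brightest probe sets, *Egr2* (522, 508 and 819) and *Junb* (556, 612 and 763) were instead highest in TSPCs-56d.

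For *Spry1*, the genes with the most similar profile were found by the distance between log2 signals, each centred over the 3 arrays. Among 9381 genes of at least middle brightness, those nearest to *Spry1* were *Adora2b*, an adenosine receptor (59.9, 67.0 and 230 at 1, 7 and 56 days), *Cdo1*, a cysteine dioxygenase (91.0, 104 and 369), and *Itgb3*, an integrin subunit (173, 201 and 669), at distances of 0.026, 0.039 and 0.059. None is given for *Fgf18*, whose profile lay at or near the dim limit. With 3 arrays many genes share a profile, and the likeness is a description.

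The arrays had median signals of 107, 108 and 114 at 1, 7 and 56 days. Tendon markers were present, with 9 of 9 analysed genes above the median of all signals on at least 1 array, and *Scx* had signals of 2255, 2578 and 2569. In TSPCs-56d relative to TSPCs-1d, 3 of these 9 were past 2-fold higher, *Dcn* (22.4, 49.4 and 607 at the 3 ages), *Thbs4* (76.5, 340 and 348) and *Tnc* (5280, 7303 and 11185), and 1 was lower, *Tnmd* (543, 351 and 158). Endothelial markers were low, with 0 of 5 above that median on any array, and their summed signal was 239, 238 and 254. That of 7 leukocyte genes was 658, 615 and 730. Other lists differed between the ages. All 8 proliferation genes were past 2-fold higher in TSPCs-7d relative to TSPCs-1d and lower in TSPCs-56d relative to TSPCs-7d, with summed signals of 4642, 12049 and 4397. The skeletal muscle list summed to 2101, 1191 and 5684, mainly through *Acta1* (1772, 855 and 5327), and the smooth muscle and pericyte list to 34662, 28893 and 38086, with 1 of 7 genes, *Myh11*, past 2-fold higher in TSPCs-56d. The cartilage list summed to 8719, 8380 and 3015, mainly through *Acan*. The Schwann and neural list summed to 1187, 1162 and 1800, mainly through *S100b* (530, 535 and 1000.4). The adipocyte list summed to 340, 290 and 268. In it *Fabp4* (70.6, 27.6 and 16.96) was past 2-fold lower at both later ages relative to TSPCs-1d. Both later *Fabp4* signals were in the dim range under 48.9, so whether the difference exceeds 2-fold is not established. The epithelial list summed to 281, 317 and 371. The 5 mesenchymal surface genes summed to 15895, 15986 and 18779. Of these, *Nt5e* (41.9, 49.3 and 110) was past 2-fold higher in TSPCs-56d relative to both earlier ages, whose signals were in or near the dim range. The part of these lists in the differences of the FGF signalling genes was not tested.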

How the data were processed

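RNA of 3 TSPC cultures was hybridised to Affymetrix Rat Genome 230 2.0 arrays, 1 for each age. The intensity values were used as the authors deposited them. The methods name MAS5 and RMA for normalization whereas only MAS5 stands in the submitters' notes, and the linear values with a lowest signal of 1 are of the MAS5 kind. Detection calls and raw probe intensities were not analysed here. All 3 value columns carried the identifier of a sample, and the age was read from the title of that sample.

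Ratios of the later over the earlier age were computed with Python 3.11.15, pandas 2.3.3 and numpy 2.4.6, with no floor and no further scaling. The methods' cutoff of 2-fold was used. With 1 array for each age there was no test and no p-value. Of the probe sets, 20826 had 1 gene symbol, 436 had several and 9780 had none, and only the first were named. A gene was read by the probe set with the highest mean signal, beside its other probe sets. The counting was checked on simulated signals without noise, in which 200 probe sets were raised past the cutoff on 1 array. That checks the arithmetic alone, and not how often noise gives a difference past the cutoff. Brightness limits were the 25th percentile of all signals (48.9) and the median of mean signals (111).

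The members and lists were chosen with earlier results of these data known. All members were named. Other pathway genes were named if past 2-fold with the higher signal above the median of all signals (110.1), at most 5 for each list and comparison, and *Fgfr4*, *Fgfrl1*, *Spry4*, *Spred1*, *Spred2*, *Dusp4*, *Dusp5*, *Etv4* and *Etv5* always. The 3 nearest profiles were to be given for each member past 2-fold by its brightest probe set, and those of *Fgf18* were left out because its signals were dim. Alternatives were other scalings, floors on low signals, a pseudocount of 32, filters on probe sets, other cutoffs and other ways to read a gene.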

Additional observations from a re-analysis of the deposited data

How the results depend on the processing

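The number of probe sets of the set past the cutoff was small and moved with the settings. In TSPCs-7d over TSPCs-1d it was 1, and became 2 with arrays divided by their median or with loess centring, since *Fgf2* then passed the cutoff, 3 at a 1.5-fold cutoff, and 0 at a 3-fold cutoff or with genes counted by their brightest probe set. In TSPCs-56d over TSPCs-7d it was 2, and became 1 with low signals raised to their 25th percentile or to their median, with a pseudocount of 32, with the brighter probe sets alone and at a 3-fold cutoff, and 6 at a 1.5-fold cutoff. In TSPCs-56d over TSPCs-1d it was 4, and became 2 with the floor at the median, the pseudocount, a 3-fold cutoff or genes counted, and 10 at a 1.5-fold cutoff. The median log2 ratio in TSPCs-7d over TSPCs-1d was -0.04, and -0.32 over the brighter probe sets and -0.25 without probe sets shared between transcripts. *Fgf18* in TSPCs-56d over TSPCs-1d had a log2 ratio of 0.00 with either floor and 0.75 with the pseudocount. *Spry1* was 1.87 in that comparison with arrays divided by their median and 1.76 with the pseudocount. Of 249 values of single genes, 237 moved by less than 0.20, 0.23 or 0.26 in the 3 comparisons. This limit was the standard deviation of a log2 ratio estimated from pairs of probe sets. The other 12 were *Fgf18* with the floors or the pseudocount, and *Fgfr2* and *Fgfr3* by the mean over their probe sets. By that mean, *Fgfr2* went from -0.40 to -0.14 in TSPCs-56d over TSPCs-7d. *Fgfr3* went from 0.64 to 0.31 in that comparison and from 0.59 to 0.17 in TSPCs-56d over TSPCs-1d. Many of the 237 could not move, because the 2 filters on probe sets kept the same probe set for each gene (27 and 30 values). The floors, too, changed only *Fgf18*. The side of the 2-fold cutoff changed for 10 values. The sign changed for 1, *Fgf10* in TSPCs-56d over TSPCs-7d (-0.02 with arrays divided by their median). No scaling moved the median of all probe sets by over 0.1. No paired analysis was possible because each age had 1 array.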
